A study of Rattus norvegicus with 10 samples.

Results

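The aryl hydrocarbon receptor, the genes it switches on and the enzymes that turn 7,12-dimethylbenz(a)anthracene (DMBA) into its DNA-reactive form were followed in rat mammary tumours that this carcinogen had itself induced. The set holds 9 genes, chosen by name: Ahr, Arnt, Ahrr, Cyp1a1, Cyp1a2, Cyp1b1, Tiparp, Aldh3a1 and Ephx1. They were read from every probe set whose platform annotation gives exactly 1 symbol, which yielded 11 probe sets for 9 of the 14217 genes named on the array in this way. All rats were female Sprague-Dawley that had received 1 oral dose of DMBA, 100 mg/kg, and the 5 tumours studied were all of Bloom-Richardson grade II, per the design text. The final samples came from these tumours at sacrifice, at 19 weeks of age, in the 7th week after biopsy, after 6 weeks of hydroxytyrosol, an olive phenol, by gavage (0.5 mg/kg, 5 days per week). The basal samples were needle biopsies of the same tumours, taken from untreated rats aged 12 weeks at a tumour volume of 2 cm3. Each tumour thus carried 1 final and 1 basal array, and no tumour of an untreated rat at the later age was analysed here, so that treatment, age, growth and the way of sampling (total tumour in the final labels, needle biopsy in the basal ones, Trucut for both in the design text) cannot be told apart.

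The aryl hydrocarbon receptor is a cytosolic transcription factor that binds polycyclic hydrocarbons and dioxins, moves to the nucleus, pairs with Arnt and binds DNA at a short element with the core GCGTG. Its best known targets are the cytochromes P450 of family 1, which oxidise the same hydrocarbons, and Ahrr and Tiparp, which restrain the receptor in turn. In the activation of DMBA, a P450 places an epoxide on the ring system, microsomal epoxide hydrolase (Ephx1) opens it to a dihydrodiol, and a second P450 step makes the diol epoxide that binds DNA. Cyp1b1 is the family member found chiefly outside the liver, in mammary tissue among others, and mice lacking Cyp1b1 or Ephx1 are known to resist tumours caused by DMBA.

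Because the receptor acts through that core, the promoter windows of the members were searched for GCGTG on either strand. A window runs from 250 bases before to 50 bases after an annotated transcript start (RefSeq, build GRCr8), and 7 of the 9 genes had at least 1 (8 windows in all). The letters stood in the windows of 4 genes, at 1 place each in Arnt and Tiparp, at 2 in Cyp1b1 and at 3 in Ahrr. The windows of Ahr, Cyp1a2 and Ephx1 held none. Of all 33469 windows of this length, 29.7% held at least 1 match, 10.2% at least 2 and 3.59% at least 3. The longer form TNGCGTG, which contains the core, was searched for after the data were seen and stood at -22 from the start in Cyp1b1 and at -59 in Ahrr, against 4.89% of all windows. The sequences of the 3 receptor targets with a match are shown, in lower case with each core in capitals (CACGC is the core on the other strand). All 3 genes lie on the plus strand.
Cyp1b1, GRCr8 chr6:21094315-21094614, plus strand: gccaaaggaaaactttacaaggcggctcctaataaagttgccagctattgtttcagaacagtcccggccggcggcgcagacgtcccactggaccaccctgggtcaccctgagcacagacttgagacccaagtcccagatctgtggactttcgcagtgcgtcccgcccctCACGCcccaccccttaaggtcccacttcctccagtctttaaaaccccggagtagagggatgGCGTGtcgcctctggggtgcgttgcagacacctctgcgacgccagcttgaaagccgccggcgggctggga
Tiparp, GRCr8 chr2:152063519-152063818, plus strand: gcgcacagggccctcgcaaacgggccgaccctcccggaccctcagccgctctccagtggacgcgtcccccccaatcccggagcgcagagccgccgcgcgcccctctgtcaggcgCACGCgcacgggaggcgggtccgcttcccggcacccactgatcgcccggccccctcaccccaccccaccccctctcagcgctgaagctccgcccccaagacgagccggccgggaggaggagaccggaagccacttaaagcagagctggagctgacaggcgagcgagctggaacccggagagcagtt
Ahrr, GRCr8 chr1:30821969-30822268, plus strand: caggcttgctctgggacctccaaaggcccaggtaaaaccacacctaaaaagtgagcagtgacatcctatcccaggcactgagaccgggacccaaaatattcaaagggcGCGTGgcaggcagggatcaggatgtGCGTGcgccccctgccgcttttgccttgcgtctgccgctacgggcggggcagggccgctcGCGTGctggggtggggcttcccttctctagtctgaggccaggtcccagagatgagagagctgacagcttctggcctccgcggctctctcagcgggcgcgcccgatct
A match describes letters only and was not tested for binding.

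Values below are Robust Multichip Average (RMA) signals on the log2 scale, and a difference is final minus basal within a tumour. Differences were fitted with limma with the tumour as a block, on the 18625 probe sets that remained after the dimmest 40% (mean below 5.14) were left out, and p-values were adjusted by Benjamini-Hochberg over all of them. The array medians over these probe sets lay between 7.75 and 7.80 in final and between 7.67 and 7.79 in basal arrays. The 10 luminal epithelial markers, such as the keratins and Epcam, were all above the dim cutoff. Some markers of other cells differed more than the luminal ones (median 0.09, 7 of 10 higher), counted here over every listed gene on the array. The final mean was higher for 10 of 10 skeletal muscle genes (median 2.77, of which 6 had a basal mean under the cutoff), 9 of 10 adipocyte genes (median 0.99, 5 under it), 9 of 10 fibroblast and matrix genes (0.63), 9 of 9 endothelial genes (0.43) and 9 of 9 T and NK cell genes (0.43). It was lower for 6 of 8 mast cell genes (median -0.89). The remaining lists had medians of 0.17 (pericytes), 0.06 (myoepithelium and smooth muscle), 0.0008 (macrophages) and -0.10 (skin keratinocytes). When each tumour was left out in turn, the medians nearest to 0 were 1.64 for muscle and -0.33 for mast cells (67D3), 0.34 for adipocytes and 0.23 for endothelium (51I1), 0.36 for fibroblasts (67D3) and 0.01 for T and NK cells (66D2). Without 45D3 they were 1.11 for fibroblasts, 0.69 for endothelium and 0.77 for T and NK cells. The 3' minus 5' signal of the hexokinase control, which is larger where RNA is degraded or incompletely labelled, lay between 0.89 and 1.10 in final arrays and between 0.97 and 2.36 in basal ones, where 45D3 (2.36) and 67D3 (2.03) were highest. The final array of 45D3 was also the only one that did not resemble its own biopsy: across probe sets the deviations from the group means correlated at -0.16 in 45D3 and between 0.17 and 0.72 in the other 4 tumours. The differences of the tested members, their correlations with each other and the pathway lists are therefore given with and without 45D3, and the likeness ranking with it alone.

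No member gene passed the threshold. Of the 9 genes, 5 had a tested probe set (Ahr, Arnt, Cyp1b1, Tiparp and Ephx1) and 4 did not (Ahrr, Cyp1a1, Cyp1a2 and Aldh3a1). With limma 0 of the 5 passed after adjustment, where 0% of all tested probe sets did, and 0 of the 5 had an unadjusted p under 0.05, where 8.02% of all did (3.43% higher and 4.59% lower in final samples). The methods' t-test for paired samples gave the same counts of 0 for the 5 genes. None of the 5 moved the same way in all 5 tumours, against 8.71% of tested probe sets (3.96% higher and 4.75% lower), and 4 of them (Arnt, Cyp1b1, Tiparp and Ephx1) moved the same way in exactly 4, against 37.8%. The final and basal ranges overlapped for every one of the 11 probe sets, where 1.24% of the tested probe sets had ranges that did not. The median difference of the 5 genes was 0.08, beside 0.00 for all tested probe sets.

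**Figure D1:**
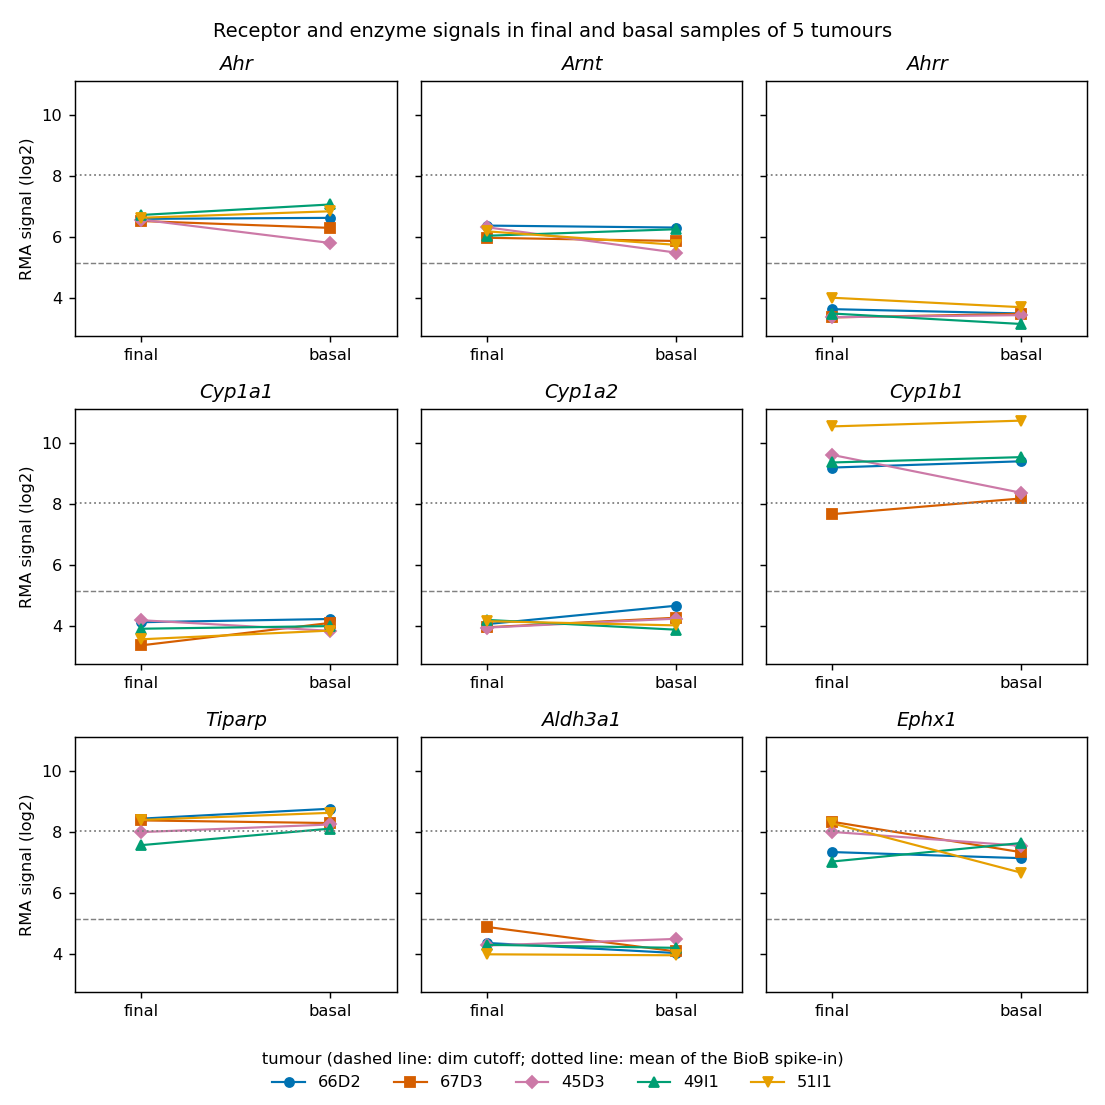
RMA signal (log2, vertical axis) of the 9 genes in the final (left) and basal (right) array of each of 5 tumours, with a line per tumour, the dim cutoff of 5.14 (dashed) and the mean of the BioB spike-in of 8.04 (dotted). Cyp1b1 spans 7.67 to 10.53 in final arrays and 8.18 to 10.72 in basal arrays, and Ahrr, Cyp1a1, Cyp1a2 and Aldh3a1 stay under the dashed line.

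Cyp1b1, the P450 that oxidises DMBA in mammary tissue, was the member that differed most between tumours. Its signal in final samples was 9.19 (66D2), 7.67 (67D3), 9.60 (45D3), 9.36 (49I1) and 10.53 (51I1). In basal samples it was 9.39 (66D2), 8.18 (67D3), 8.36 (45D3), 9.53 (49I1) and 10.72 (51I1). Tumour 51I1 was highest and 67D3 lowest at both moments, and the groups overlapped over nearly their whole range. The highest tumour exceeded the lowest 7.30-fold among final and 5.83-fold among basal samples. The SD between tumours was 1.04 in final and 1.02 in basal arrays (n = 5 each), larger than in 96.8% and 97.1% of the tested probe sets, whose medians were 0.25 and 0.26. With 1 array per tumour and moment, the spread within a tumour is not measured, so neighbours in this order, such as 66D2 and 49I1, cannot be ranked. The signal lay above the BioB spike-in, which the study used to gauge sensitivity (mean 8.04), on 9 of 10 arrays.

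Between the moments Cyp1b1 averaged 9.27 ± 1.04 in final and 9.24 ± 1.02 in basal samples (SD, n = 5 each), a difference of 0.03 (SE 0.25, 95% interval -0.57 to 0.64, limma adjusted p = 0.978). It was lower in 4 of 5 final samples, by 0.17 to 0.51, and higher in 45D3 by 1.24. In 45D3 only 1.30% of tested probe sets had a difference as large upward. Without 45D3 the difference was -0.27 (SE 0.10), lower in 4 of 4 tumours, with an unadjusted p of 0.0407 and a limma adjusted p of 0.256. In that fit 18.2% of all tested probe sets had an unadjusted p under 0.05, 9.7% of all being lower in final samples, and 28.2% moved the same way in all 4 tumours. The medians of the fibroblast and matrix markers and of the adipocyte markers differed opposite in sign to Cyp1b1 in 5 of 5 tumours. The fibroblast median did so, by 1.43 (66D2), 1.23 (67D3), -1.22 (45D3), 0.57 (49I1) and 0.80 (51I1). The adipocyte median was only 0.16 in 49I1, and in 66D2 it was 0.41, or 0.15 over all 10 adipocyte markers on the array. In 66D2, 49I1 and 45D3 some adipocyte markers had the opposite sign to their median. Among fibroblast markers Postn did so in 45D3 and Fbln1 in 49I1. Both lists were picked out of the marker lists for this pattern, after the values were seen. All 10 fibroblast markers were above the dim cutoff, and their summed linear signal ran from 14896 to 65976 in final and from 15442 to 36726 in basal arrays. The part of either cell type in the Cyp1b1 values was not tested. In bulk tumour RNA, fewer cells of a type and less RNA per cell cannot be told apart.

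Ahr, the receptor itself, had almost the same signal in every final sample but not in the biopsies. Its brighter probe set read 6.60 (66D2), 6.53 (67D3), 6.57 (45D3), 6.72 (49I1) and 6.63 (51I1) in final samples. In basal samples it read 6.63 (66D2), 6.30 (67D3), 5.81 (45D3), 7.07 (49I1) and 6.84 (51I1). The final values lay within 0.20 of each other, inside a basal range of 1.26. The SD was 0.07 in final arrays, at the 3.05th percentile of tested probe sets, and 0.49 in basal arrays, at the 82.5th percentile. A ratio of final to basal SD as low as that of Ahr, 0.15, was found in 0.14% of tested probe sets (26 of 18625). Swapping final and basal labels within tumours in all 32 ways gave a two-sided exact permutation p of 0.0625 for this ratio. That is the smallest these swaps can give. Ahr was picked out after its values were seen, so this p cannot support a difference in spread. Without 45D3 the SD was 0.08 in final and 0.33 in basal arrays, a ratio of 0.25, as low in 1.83% of probe sets. The low basal values of Ahr, in 45D3 and 67D3, were those of the arrays with the highest hexokinase 3' minus 5' difference, whose part was not tested.

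As a mean, Ahr was 6.61 ± 0.07 in final and 6.53 ± 0.49 in basal samples (SD, n = 5 each), a difference of 0.08 (SE 0.17, limma adjusted p = 0.918), with 2 tumours higher and 3 lower. Without 45D3, where the difference was 0.76, it was -0.09 (SE 0.12, limma adjusted p = 0.728). The other Ahr probe set stayed between 3.91 and 4.35 on all arrays, under the dim cutoff, and was not tested.

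**Figure D2:**
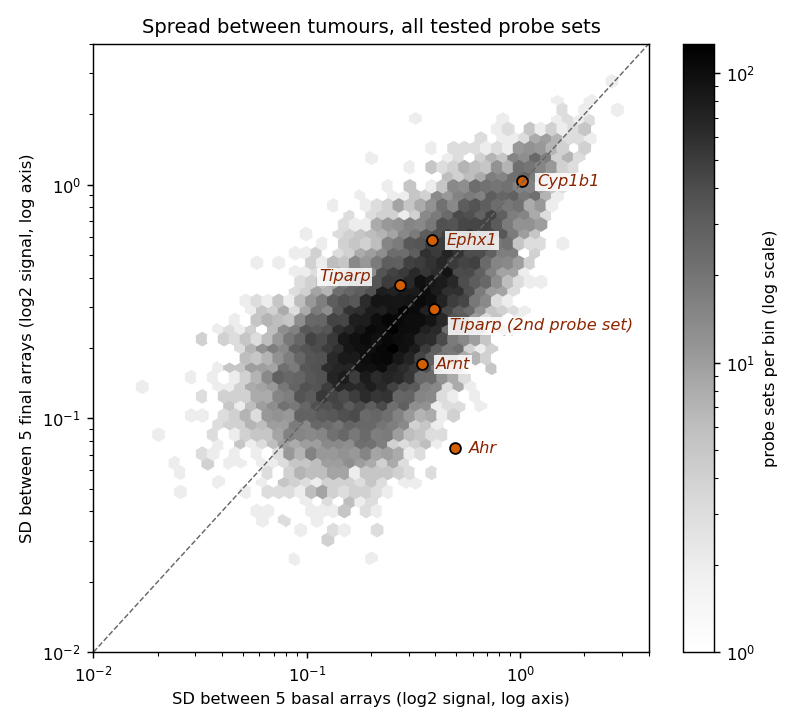
SD between the 5 basal arrays (horizontal) against SD between the 5 final arrays (vertical), both in log2 signal on log axes, for all 18625 tested probe sets (grey, darker where more fall) and the 6 tested probe sets of the member genes (orange). Cyp1b1 lies near the upper end on the diagonal of equal spread (1.02 and 1.04), and Ahr lies far below it (0.49 basal, 0.07 final).

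Arnt, the partner that the receptor needs to bind DNA, had a signal of 6.38 (66D2), 5.98 (67D3), 6.32 (45D3), 6.04 (49I1) and 6.19 (51I1) in final samples. In basal samples it was 6.31 (66D2), 5.87 (67D3), 5.49 (45D3), 6.26 (49I1) and 5.75 (51I1). It was higher in 4 of 5 final samples, by 0.06 to 0.83, and lower in 49I1 by 0.21, and the groups overlapped. The mean difference was 0.24 (SE 0.16, limma adjusted p = 0.714), and 0.10 without 45D3 (SE 0.13, limma adjusted p = 0.716), where the difference was 0.83. Ahr, Arnt and Cyp1b1 all had their largest final-minus-basal difference in 45D3, the tumour whose hexokinase control differed by -1.47 between final and basal arrays. In 67D3, where the control differed by -1.02, the differences were 0.22 for Ahr, 0.10 for Arnt and -0.51 for Cyp1b1. In 45D3, 6.51% of tested probe sets moved up as far as Ahr and 5.36% as far as Arnt. Across the 10 arrays the Pearson correlation of Ahr was 0.61 with Arnt and 0.57 with Cyp1b1. Over the 8 arrays without 45D3 it was 0.19 with Arnt and 0.58 with Cyp1b1. These arrays share tumours and array-wide differences. The other pairs of the 5 tested genes lay between -0.27 and 0.28 over the 10 arrays, and between -0.33 and 0.25 without 45D3.

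Tiparp, an ADP-ribosyltransferase that the receptor induces and that restrains it in mouse and human cells, had the smallest unadjusted p of the members. The brighter probe set read 8.44 (66D2), 8.38 (67D3), 8.0 (45D3), 7.57 (49I1) and 8.39 (51I1) in final samples. In basal samples it read 8.76 (66D2), 8.29 (67D3), 8.25 (45D3), 8.11 (49I1) and 8.63 (51I1). It was lower in 4 of 5 final samples, by 0.23 to 0.54, and higher by 0.09 in 67D3, and the groups overlapped. The mean was 8.15 ± 0.37 in final and 8.41 ± 0.27 in basal samples (SD, n = 5 each), a difference of -0.25 (SE 0.11, 95% interval -0.52 to 0.02, unadjusted p = 0.0633, limma adjusted p = 0.639). Without 45D3 it was also -0.25 (SE 0.13, limma adjusted p = 0.348). Without 67D3 it was -0.34 (unadjusted p = 0.0286, limma adjusted p = 0.969), where 2.43% of all probe sets were lower at an unadjusted p under 0.05. The unadjusted limma p was also under 0.05 after a BioB filter (0.0479), median centring (0.0447), quantile normalization (0.0446) and array weights (0.0449). In these fits 655 of 8065, then 1507, 1522 and 3254 of 18625 probe sets were too, and the adjusted p of Tiparp was 0.278 or more. Without the tumour block its unadjusted limma p was 0.224, and over the median of its probe sets 0.169. The dimmer probe set differed by -0.10 (SE 0.13, limma adjusted p = 0.856), with 3 tumours higher and 2 lower, so the probe sets of this gene did not agree in direction in 45D3 (-0.25 and 0.19) or in 51I1 (-0.23 and 0.02). Without 45D3 the dimmer probe set differed by -0.17 (SE 0.13, limma adjusted p = 0.530).

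**Figure D3:**
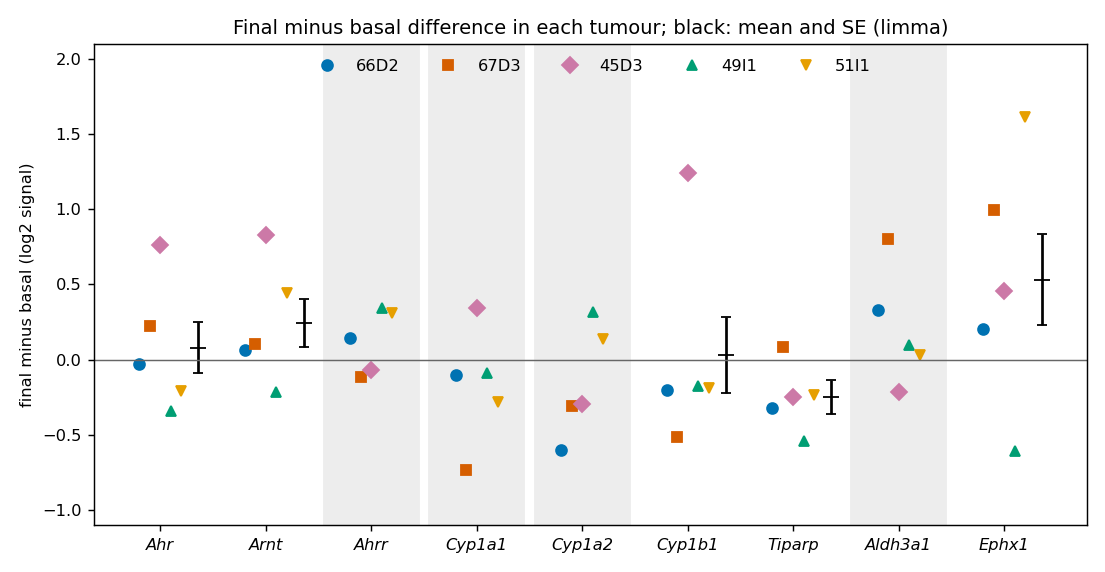
Final minus basal difference (log2 signal, vertical axis) of the 9 genes in each of 5 tumours, with the limma mean and SE in black for the 5 tested genes, and grey bands for the 4 under the dim cutoff. Tumour 45D3 lies apart above the others for Cyp1b1 (1.24), Ahr (0.76) and Arnt (0.83), and Ephx1 runs from -0.61 in 49I1 to 1.61 in 51I1.

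Ephx1, the microsomal epoxide hydrolase between the P450 steps of DMBA activation, had the largest mean difference of the tested members and the widest spread of differences. Its signal in final samples was 7.34 (66D2), 8.33 (67D3), 8.0 (45D3), 7.03 (49I1) and 8.28 (51I1). In basal samples it was 7.14 (66D2), 7.34 (67D3), 7.55 (45D3), 7.64 (49I1) and 6.67 (51I1). The final signal was higher in 4 of 5 tumours, most in 51I1 (1.61) and 67D3 (0.99), and lower in 49I1 (-0.61), and the groups overlapped. In 51I1 only 1.60% of tested probe sets had a difference as large upward. The mean was 7.80 ± 0.58 in final and 7.27 ± 0.39 in basal samples (SD, n = 5 each), a difference of 0.53 (SE 0.30, 95% interval -0.19 to 1.25, limma adjusted p = 0.676). The SD of the 5 differences was 0.84, larger than in 92.2% of tested probe sets. The difference was 0.26 without 51I1 and 0.82 without 49I1, where the unadjusted p was 0.0189 and the limma adjusted p = 0.514, with 3.07% of tested probe sets higher at an unadjusted p under 0.05 in that fit. Without 45D3 it was 0.55 (SE 0.36, limma adjusted p = 0.459).

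Adipocyte markers had their largest differences in the same tumours as Ephx1, with medians of 4.01 in 51I1 and 2.16 in 67D3, beside 0.41 in 66D2, 0.16 in 49I1 and -1.47 in 45D3. Of the 10 such markers on the array, 6 were above the dim cutoff, among them Fabp4 and Lpl, while Plin1, Cidec, Lep and Pck1 were under it. Adipoq was above it only through its final mean (6.00, basal 4.53). Over the 5 markers with a basal mean above the cutoff, the medians were 2.78 in 51I1, 2.13 in 67D3, 0.36 in 66D2, 0.17 in 49I1 and -0.96 in 45D3. The summed linear signal of all 10 markers, dim ones included, ran from 1775 to 13429 in final and from 1491 to 3001 in basal arrays. In 45D3 and 49I1 Ephx1 and the marker medians moved in opposite directions. The adipocyte list was picked out of the marker lists after the values were seen. Endothelial markers also had their largest median in 51I1 (1.47), beside 1.11 in 66D2, 0.57 in 67D3, -0.16 in 49I1 and -0.90 in 45D3. The part of either cell type in the Ephx1 values was not tested.

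**Figure D4:**
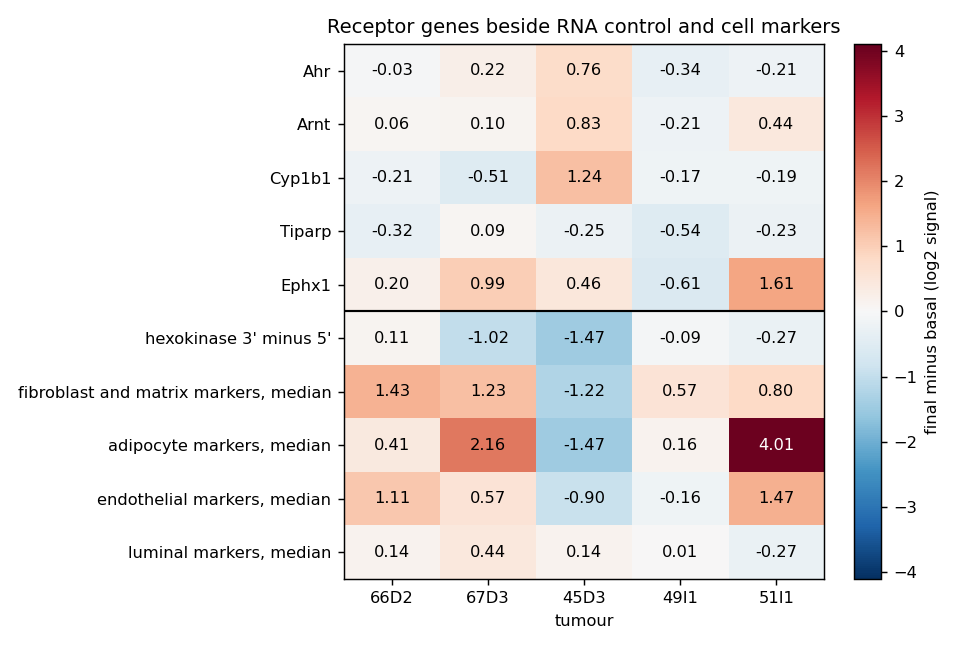
Final minus basal difference (log2 signal, colour and printed value) in each tumour for the 5 tested member genes (above the line), the hexokinase 3' minus 5' control, and the median of each of 4 marker lists. The 45D3 column has Ahr, Arnt and Cyp1b1 at 0.76, 0.83 and 1.24 beside hexokinase at -1.47 and fibroblast markers at -1.22, and the 51I1 column has Ephx1 at 1.61 beside adipocyte markers at 4.01.

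Cyp1a1 and Cyp1a2, the P450 enzymes most strongly induced by the receptor in liver, were under the dim cutoff of 5.14 on every array, as were Ahrr, the receptor's repressor, and Aldh3a1, an aldehyde dehydrogenase of the receptor's gene battery (40 of 40 values). These signals are not shown to be above background, so differences among them were not tested and no folds are given. Cyp1a1 lay between 3.38 and 4.20 in final and between 3.85 and 4.24 in basal samples. Cyp1a2 lay between 3.96 and 4.21 in final and between 3.89 and 4.67 in basal samples. Ahrr, whose promoter window holds the core GCGTG at 3 places, lay between 3.38 and 4.02 in final and between 3.16 and 3.71 in basal samples. Aldh3a1 lay between 4.0 and 4.90 in final and between 3.97 and 4.5 in basal samples. Each pair of ranges overlapped.

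Around the members, 6 lists of genes of the same pathway were read from the same fit, with 1 probe set per gene, the brightest. Of their 46 tested genes 0 passed the limma threshold over all probe sets, and 3 had an unadjusted p under 0.05, where 8.02% of all probe sets did. Without 45D3 the counts were 0 and 12 of 46, where 18.2% of all probe sets had such a p. With array weights they were 0 and 8 of 46, where 3254 of all 18625 probe sets had such a p. With no dim filter they were 0 and 6 of 68, where 2276 of all 31042 did. Of the receptor's cytosolic chaperones, 2 were tested: Ptges3, the p23 co-chaperone, differed by -0.17 (SE 0.09) and was lower in 5 of 5 tumours (4.75% of all tested probe sets were), and Hsp90ab1 differed by 0.02 (limma adjusted p = 0.675 and 0.956), against -0.21 and -0.01 without 45D3. Of the other factors of the same bHLH-PAS family, 4 were tested and 0 had an unadjusted p under 0.05 (median 0.08), and 2 of 4 without 45D3 (median 0.20, and 0.01 without 51I1). Npas2, a clock factor, differed by 0.46 (SE 0.27) and Hif1a, the hypoxia factor that also pairs with Arnt, by -0.13 (SE 0.10). Without 45D3 Npas2 differed by 0.70 (unadjusted p = 0.0229, limma adjusted p = 0.214) and Hif1a by -0.12. Epas1 differed by 0.17 over 5 tumours and by 0.44 without 45D3 (limma unadjusted p = 0.0344, adjusted p = 0.243). Of 8 tested genes known to respond to the receptor besides the members, 4 had a higher and 4 a lower mean (median -0.03), with 0 at an unadjusted p under 0.05. Without 45D3, 2 had a higher and 6 a lower mean (median -0.08), with 2 at such a p, and the median was 0.04 without 67D3 and -0.16 without 51I1. Among these Scin, an actin-severing protein, differed by -0.86 (SE 0.39, limma adjusted p = 0.639), lower in 4 of 5 tumours, and Ugdh, which makes the sugar donor for glucuronidation, by -0.13 (SE 0.11). They differed by -1.07 and -0.15 without 45D3. The 2 genes at an unadjusted p under 0.05 in that fit were Scin and Xdh, which went opposite ways. Xdh differed by 0.11 (SE 0.48) over 5 tumours. Without 45D3 it differed by 0.67, higher in 4 of 4 tumours (limma unadjusted p = 0.0287, adjusted p = 0.228). Ereg and Serpinb2, also on this list, were not tested because their means over all arrays were under the dim cutoff. Ereg averaged 4.55 in final and 5.16 in basal samples and was lower in 5 of 5 tumours. Serpinb2 averaged 3.64 in final and 4.11 in basal samples and was lower in 4 of 5.

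The proteins that pass electrons to P450 enzymes had 4 of 5 tested genes with a higher mean (median 0.18), and 3 of 5 without 45D3 (median 0.09). Cyb5a, cytochrome b5, averaged 10.58 ± 0.09 in final and 10.28 ± 0.21 in basal samples (SD, n = 5 each), higher in 5 of 5 tumours by 0.29 (SE 0.11, unadjusted p = 0.0310, limma adjusted p = 0.593). Cyb5r3, its reductase, was higher in 5 of 5 tumours by 0.18 (SE 0.08, limma adjusted p = 0.647). Without 45D3 Cyb5a differed by 0.34 (limma adjusted p = 0.211) and Cyb5r3 by 0.16 (limma adjusted p = 0.369). Over all tested probe sets, 3.96% were higher in all 5 tumours.

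Of the 22 tested genes that conjugate or reduce hydrocarbon metabolites, 16 had a higher and 6 a lower mean (median 0.11), and 2 had an unadjusted p under 0.05, both higher, where 3.43% of all tested probe sets were. Without 45D3, 17 had a higher and 5 a lower mean (median 0.06). In that fit 4 of the 22 reached an unadjusted p under 0.05, where 18.2% of all tested probe sets did. Without 49I1 the median was 0.21. Gstm2, a glutathione transferase of the mu class, averaged 7.95 ± 0.42 in final and 7.37 ± 0.48 in basal samples (SD, n = 5 each), higher in 5 of 5 tumours by 0.58 (SE 0.17, unadjusted p = 0.0126, limma adjusted p = 0.556). Gstm7, of the same class, was higher in 5 of 5 tumours by 0.50 (SE 0.16, limma adjusted p = 0.580), with a basal mean of 5.13, just under the dim cutoff. Without 45D3 Gstm2 differed by 0.73 (limma adjusted p = 0.144) and Gstm7 by 0.34 (limma adjusted p = 0.239). Gstm1 and Sult1a1 reached an unadjusted p under 0.05 only in that fit, higher by 0.63 and 1.56 (limma adjusted p = 0.265 and 0.150). The basal mean of Sult1a1 was 5.02, under the dim cutoff. The mu-class genes are close in sequence, and how far their probe sets hybridise to each other was not tested. Of 5 other tested enzymes listed as oxidising carcinogens, 4 had a higher mean (median 0.13) and 0 an unadjusted p under 0.05. The list includes Cyp26b1, a retinoic acid enzyme, which is counted among these 4. Without 45D3 the median was 0.38, with 3 of 5 at such a p, Cyp26b1 included, where 18.2% of all tested probe sets were. Without 51I1 the median was 0.06 and without 49I1 -0.0057. Cyp4b1 differed by 0.98 (SE 0.56, limma adjusted p = 0.676), from 3.12 in 67D3 and 2.04 in 51I1 to -0.89 in 45D3, with a basal mean of 5.11 under the dim cutoff, and Cyp26b1, which degrades retinoic acid, by 0.21 (SE 0.30). Without 45D3 Cyp4b1 differed by 1.45 and Cyp26b1 by 0.54, each higher in 4 of 4 tumours (limma adjusted p = 0.231 and 0.203). Ptgs1 differed by 0.13 over 5 tumours and by 0.38 without 45D3, higher in 3 of 4 tumours (limma adjusted p = 0.247).

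**Figure D5:**
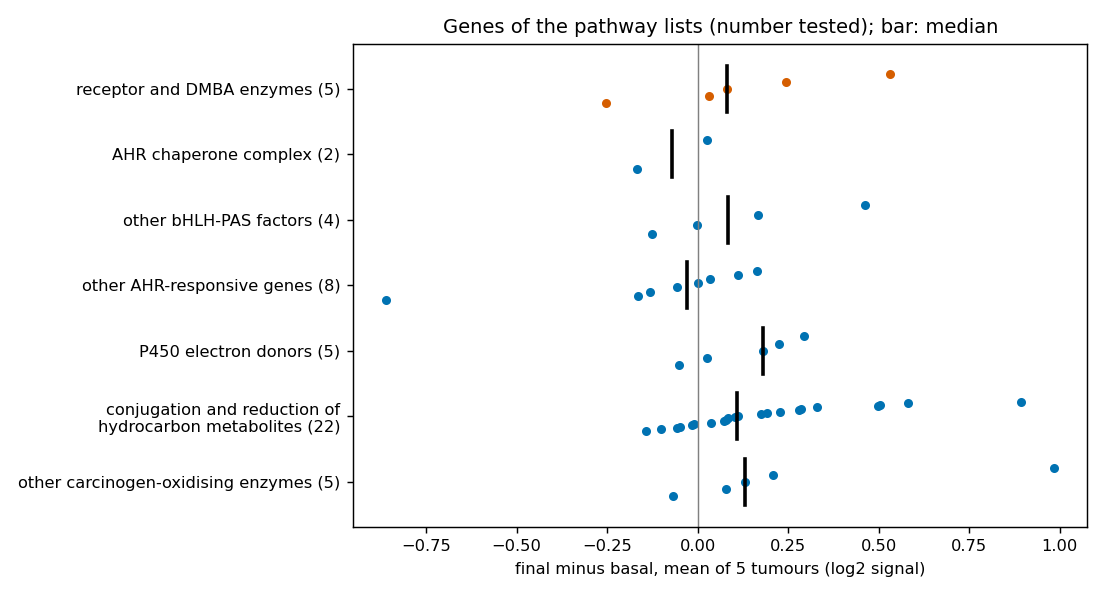
Mean final minus basal difference over 5 tumours (log2 signal, horizontal axis) of each tested gene in the member set (orange) and in 6 surrounding pathway lists (blue), with the list median as a black bar. The medians lie between -0.07 for the chaperones and 0.18 for the electron donors, and the outermost genes are Scin (-0.86) and Cyp4b1 (0.98).

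The genes most like each tested member over the 10 arrays, among 10838 others with 1 probe set each, were ranked by Pearson correlation, as a description of 5 paired tumours. Closest to Cyp1b1 were Gramd1b, a sterol carrier (r = 0.94), Spdl1, a kinetochore protein (0.93), and Lgals3bp, a secreted glycoprotein that binds galectin-3 (0.93). Closest to Arnt were Anp32a (0.95), Rab1b (0.95) and Fut11 (0.93). Closest to Tiparp were Syt15 (0.93), Ifrd1 (0.92) and Prss56 (0.91). Closest to Ephx1 were Rab5c (0.89), Pnpla8 (0.88) and Slc48a1, a haem transporter (0.87). For Ahr they were Vkorc1l1 (0.95), Homer2 (0.95) and Psmc2, a proteasome ATPase (0.94), but by Spearman's rank correlation Vkorc1l1 stood at 0.66. By that measure 10 of the 15 named genes were no longer among the 3 closest to their member.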

How the data were processed

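The authors hybridised biotin-labelled RNA of 10 tumour samples to Affymetrix rat genome arrays and applied RMA, per the submitters' processing notes, with no software version named there. The deposited values were taken to be log2 signals because of their range and near-equal array medians, no label naming a scale. RMA equalises the arrays, and changes in total RNA per cell are lost. The table held 31099 probe sets, 57 of them controls, so the authors' filter on controls and dim signals, named in the design text, had not been applied to it. The platform annotation gave 1 symbol to 20826 probe sets, several to 436 and none to 9780. The array design gives no depth, and the number of arrays limits the precision.

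Final and basal samples were compared with limma 3.58.1 in R 4.3.3 (lmFit, eBayes), blocked by tumour, since a tumour identifier in the labels pairs the samples (same-tumour deviations correlated at -0.16 to 0.72). Calls needed an adjusted p under 0.05. There were 4 residual and 2.64 prior degrees of freedom. A gene was represented by its brightest probe set. On simulated data for this comparison (18625 probe sets), the fit recovered 8% of changes of 0.5, 68% of 1.0, 84% of 2.0 and 100% of 4.0 on the log2 scale. It also called 5 unchanged probe sets. The changes, 50 of each size, were placed on probe sets picked at random, with noise drawn independently for each probe set. In the real data the arrays share differences and 0 probe sets passed, so the shares recovered there may be lower. Acta1, a skeletal muscle marker, differed by 3.95 in the real data and did not pass (limma adjusted p = 0.556). Ephx1 and Cyp1b1 had a larger SD of differences (0.84 and 0.69) than the median probe set (0.30), so the simulated shares need not hold for them either. The p-values treat tumours as the replicates.

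The members, lists and marker lists were chosen with earlier results of these data known. The text names all members, in each pathway list the genes with an unadjusted p under 0.05 or, if there are fewer than 2, the 2 with the smallest p, and for each tested member the 3 most correlated genes. Genes of these lists at an unadjusted p under 0.05 only without 45D3 are named too, added after seeing the data. Alternatives were other filters, no or a random tumour block, other scalings, array weights, an intensity trend, the methods' t-test, the median over a gene's probe sets and leaving out each tumour in turn. The counts of markers over all genes on the array, the adipocyte medians over genes with a basal mean above the cutoff and the correlations without 45D3 were added after seeing the data.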

Additional observations from a re-analysis of the deposited data

How the results depend on the processing

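Under 16 alternatives 0 member genes passed the adjusted threshold, the lowest adjusted p being 0.256 (Cyp1b1 without 45D3), and at most 1 had an unadjusted p under 0.05. The count of all probe sets past the threshold was likewise 0 under each alternative run for it, and so was that of the pathway lists. In the reported fit 1494 of 18625 probe sets had an unadjusted p under 0.05. On the same 18625 this count moved by over 1.5 times under 4 settings. It was 3254 with array weights, 3383 without 45D3, 795 without 67D3 and 833 without 66D2. Other filters changed the number tested as well: 2276 of 31042 with no dim filter and 655 of 8065 with a BioB filter. Without the replicate block by tumour 0 probe sets passed and 1001 had an unadjusted p under 0.05, and with the tumour as a random block the numbers were 0 and 1620. The block changed no call. Of the member values under alternatives, 103 kept their direction or stayed within their spread and 4 changed direction: Cyp1b1, 0.03 as reported, was -0.27 without 45D3 and -0.17 with array weights, and Ahr, 0.08 as reported, was -0.091 and -0.026 under the same settings. The cause was not tested. Leaving out each tumour in turn, the difference ran from -0.27 to 0.17 for Cyp1b1, from -0.091 to 0.19 for Ahr, from 0.10 to 0.36 for Arnt, from -0.34 to -0.18 for Tiparp and from 0.26 to 0.82 for Ephx1, and the counts past the threshold ran from 0 to 0. Under the median over its probe sets Tiparp was -0.17. At the size of most member differences, under 0.5, few changes were recovered from simulated data, so differences of that size may go undetected with 5 tumours.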
